A study of Mus musculus with 46 samples.

Results

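The 8 genes described here encode enzymes that remove superoxide and peroxides in the mouse lung: the glutathione peroxidases Gpx1, Gpx2, Gpx3 and Gpx4, the superoxide dismutases Sod1, Sod2 and Sod3, and catalase (Cat). They were chosen by name, and every probe set that the array annotation gives to 1 of these symbols was taken. This gave 13 probe sets for 8 of the 15965 genes that the annotation names. Of these, 9 are on array type A, 2 on type B and 2 on type C, and 12 of the 13, covering all 8 genes, passed the filter on low values. The remaining one, 106529_at for Sod1 on type B, lay above the filter on 1 of 16 arrays and was not tested. The 12 tested probe sets lay above the filter on every array of their type.

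Superoxide dismutases turn superoxide into hydrogen peroxide and oxygen. Sod1 is the copper and zinc enzyme of the cytosol, Sod2 the manganese enzyme of mitochondria and Sod3 the secreted enzyme that binds the extracellular matrix and is abundant around lung vessels and airways. Catalase breaks hydrogen peroxide down in peroxisomes, while glutathione peroxidases reduce peroxides at the expense of glutathione. Gpx1 is the widespread cytosolic form, Gpx2 an epithelial form, Gpx3 a secreted form found in plasma and Gpx4 a form that reduces lipid peroxides in membranes. The product of Nfe2l2, Nrf2, switches on antioxidant genes by binding a DNA motif called the antioxidant response element.

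Lung RNA came from Nrf2 mutant mice before exposure (0 h) or kept for 24, 48 or 72 h in 100% oxygen, and from wild type mice at the same 4 times. Each of the 8 groups has replicates 1a and 1b on each array type, with 2 exceptions on type A: only replicate 1b (n = 1) was given for the mutant at 0 h and likewise for wild type at 24 h. This leaves 14 arrays of type A, 16 of type B and 16 of type C. The labels give neither the kind of mutation nor the strain, sex or age of the mice, and replicates 1a and 1b are not said to be separate animals, so p-values measure only the spread between these samples. Intensities are the authors' scaled values, and differences are log2 differences ± SE from limma after adding a constant to each intensity. They were called at an adjusted p under 0.05 over 26833 tested probe sets.

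Nfe2l2 itself read 302.5 to 448 on the 7 mutant arrays of type A and 2428 to 4488 on the 7 wild type arrays, without overlap. Whole-lung markers were present on all arrays, and no deposited value was 0. The summed intensity of 5 of 8 alveolar type 2 markers ran from 44647 to 88443, and that of 3 of 5 club cell markers from 44122 to 71293. The mutant 0 h arrays stood apart. Correlated with every other array of the same type, the mutant 0 h array averaged 0.856 on type A, against 0.916 to 0.940 for the rest. On type B the pair averaged 0.827 to 0.838, against 0.892 to 0.922 for the rest, and on type C 0.848 to 0.858, against 0.879 to 0.902. Their ratio of the 3′ to the 5′ Gapdh control signal was 1.67 to 2.26 (n = 5), against 0.858 to 1.54 on the other arrays (n = 41). Summed skeletal muscle markers (4 of 8) reached 24825 on the mutant 0 h array of type A, against at most 2516 elsewhere, and squamous epithelial markers (4 of 8) reached 51939, against at most 26693. Results against the mutant at 0 h rest on this array for type A. The mutant's called changes against it are also given with wild type at 0 h as the baseline, a difference that holds the genotype as well as the oxygen, and the difference in response with 24 h as the baseline. Lung arrays read all cells together, so fewer cells of a type and less RNA per cell cannot be told apart.

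The proximal promoters are shown for Gpx2, the member with the largest genotype difference, and for Sod1, the member whose window holds the core letters of the antioxidant response element. The sequences are RefSeq promoter windows of GRCm38.p6, from 250 bases before to 50 bases after the gene's start, written 5′ to 3′ on the gene's own strand. A single capital marks the first transcribed base, and the capital run in Sod1 marks the match. The Gpx2 window is chr12:76795505-76795804 on the minus strand, and the Sod1 window is chr16:90220512-90220811 on the plus strand.
Gpx2 promoter: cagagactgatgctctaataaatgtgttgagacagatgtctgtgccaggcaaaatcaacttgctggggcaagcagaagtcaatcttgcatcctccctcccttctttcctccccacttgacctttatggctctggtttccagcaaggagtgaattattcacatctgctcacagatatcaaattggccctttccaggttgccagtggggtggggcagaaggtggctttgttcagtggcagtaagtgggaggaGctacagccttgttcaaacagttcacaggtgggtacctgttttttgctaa
Sod1 promoter: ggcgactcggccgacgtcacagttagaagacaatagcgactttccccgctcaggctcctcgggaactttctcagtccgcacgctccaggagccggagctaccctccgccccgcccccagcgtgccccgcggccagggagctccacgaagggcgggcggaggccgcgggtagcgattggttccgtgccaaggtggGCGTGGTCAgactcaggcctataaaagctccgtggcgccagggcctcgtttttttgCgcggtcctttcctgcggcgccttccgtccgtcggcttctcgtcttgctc
The letters searched were TGACNNNGC and TGAGNNNGC on both strands. Sod1 holds GCGTGGTCA, read on the strand opposite to the gene, at positions -56 to -48 from the start. Of the 10 windows found for 7 member genes (4 of them for Gpx4), this 1 had a match, against 9128 of 32851 windows of the same length (27.8%). A match is letters only, and a window without one says nothing about sites elsewhere.

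Gpx2 separated the genotypes at every time. Its probe set 99810_at (gene at chr12:76792335-76795554, minus strand, GRCm38.p6) read 637 in the mutant at 0 h, against 1458 and 1836 in wild type. After 24 h in oxygen it read 570.3 and 510.3 in the mutant, against 2259 in wild type (n = 1). At 48 h the values were 555 and 525 in the mutant, against 3296 and 2842 in wild type. At 72 h they were 558 and 686 in the mutant, against 4899.9 and 4085 in wild type. The 7 mutant arrays lay between 510.3 and 686, all below the 7 wild type arrays, and the wild type values at 72 h were the highest of all 14.

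Averaged over 24, 48 and 72 h, Gpx2 was 5.01-fold lower in the mutant, a log2 difference of -2.32 ± 0.11 (limma, adjusted p = 4.33e-06). By time, the log2 difference was -1.26 ± 0.22 at 0 h (adjusted p = 0.0183), -1.92 ± 0.22 at 24 h (0.00849), -2.34 ± 0.18 at 48 h (0.000290) and -2.71 ± 0.18 at 72 h (8.16e-05). Among the 178 probe sets called lower in the mutant over the oxygen times, that of Gpx2 ranked 6th by size. The 24 h call rests on 1 wild type array and is lost without replicate 1b of the mutant at 24 h (adjusted p = 0.0666), and the 0 h call is lost without replicate 1b of wild type at 0 h (adjusted p = 0.0770). At 48 h, at 72 h and as the mean, the call held in all 23 alternatives for each, with adjusted p up to 0.0271, 0.0300 and 5.25e-05.

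**Figure D1:**
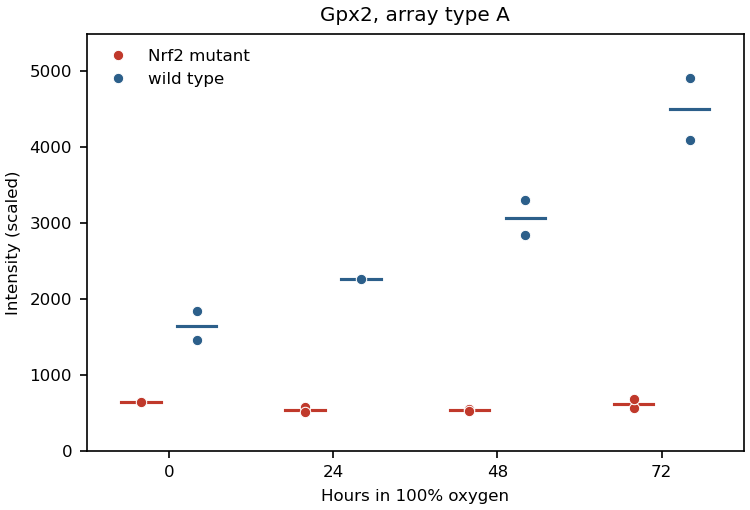
Gpx2 intensity (scaled, linear axis from 0) on each array of type A, by hours in 100% oxygen. Points are arrays and horizontal bars are group means, with Nrf2 mutant to the left of wild type. The mutant arrays stay between 510.3 and 686, while wild type runs from 1458 at 0 h to 4899.9 at 72 h.

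Gpx2 also rose under oxygen in wild type. Against 0 h, the log2 difference was 0.45 ± 0.22 at 24 h (limma, adjusted p = 0.389), 0.87 ± 0.18 at 48 h (adjusted p = 0.0197) and 1.41 ± 0.18 at 72 h (adjusted p = 0.00144, 2.66-fold). In the mutant the same differences were -0.21 ± 0.22, -0.21 ± 0.22 and -0.04 ± 0.22, with adjusted p from 0.535 to 0.933. The 48 h rise in wild type is lost when either wild type array at 0 h or at 48 h is left out, with adjusted p from 0.0510 to 0.141, while the 72 h rise kept its call in all 23 alternatives. Tested directly, the response at 72 h was smaller in the mutant (mutant minus wild type -1.45 ± 0.29, adjusted p = 0.0441). That test uses the single mutant 0 h array, and with 24 h as the baseline the difference was -0.79 ± 0.29 (adjusted p = 0.546). It also lost its call in 12 fits that each left out 1 array of another group, with adjusted p from 0.0617 to 0.139.

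The genes most like Gpx2 across the 13 type A arrays without the mutant at 0 h were Gstp1 (Pearson r = 0.967), which encodes a glutathione transferase, Cwc22 (0.961), a splicing factor, and Nfe2l2 (0.952). These arrays share their libraries, genotypes and times, so the correlations are descriptions.

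Gpx4 fell under oxygen in both genotypes. Probe set 94897_at (gene at chr10:80047166-80056439) read 7401 in the mutant at 0 h, against 2849 and 4045 in wild type. In the mutant it read 1179 and 1419 at 24 h, 1540.3 and 1891 at 48 h, and 1313 and 1655 at 72 h. In wild type it read 2311 at 24 h (n = 1), 1514 and 1785 at 48 h, and 1649.7 and 2088 at 72 h. All 11 arrays taken under oxygen lay below the 3 arrays taken at 0 h.

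Against 0 h, the log2 difference of Gpx4 in the mutant was -2.45 ± 0.27 at 24 h, -2.07 ± 0.27 at 48 h and -2.27 ± 0.27 at 72 h (limma, adjusted p = 0.000249, 0.000897 and 0.000323). With wild type at 0 h as the baseline these values shrank to -1.34 ± 0.22, -0.96 ± 0.22 and -1.16 ± 0.22 and stayed called (adjusted p = 0.00575, 0.0306 and 0.00733). In wild type the difference was -0.54 ± 0.27 at 24 h (adjusted p = 0.396), -1.01 ± 0.22 at 48 h (adjusted p = 0.0250) and -0.84 ± 0.22 at 72 h (adjusted p = 0.0448). The wild type 48 h call is lost without replicate 1b of 0 h, or without either replicate of 48 h, with adjusted p from 0.0824 to 0.176. The 72 h call is lost in 12 of 23 alternatives, with adjusted p up to 0.262 without replicate 1b of wild type at 0 h.

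Between genotypes Gpx4 was not called. Its log2 difference, mutant minus wild type, was 1.11 ± 0.27 at 0 h (limma, adjusted p = 0.0618), -0.80 ± 0.27 at 24 h (0.370), 0.05 ± 0.22 at 48 h and -0.32 ± 0.22 at 72 h. The 95% interval of the mean over the oxygen times was -0.66 to -0.05 (adjusted p = 0.361). Summed cardiac muscle markers were, like Gpx4, highest at 0 h. In the mutant they summed to 44405 at 0 h, 20196 to 21951 at 24 h, 11079.8 to 12821 at 48 h and 10157 to 10504 at 72 h. In wild type they summed to 35485 to 37436, 22099 (n = 1), 12511 to 12945 and 9233 to 9472 at the same times. Within oxygen the sums were lower at each later time, while Gpx4 in the mutant averaged least at 24 h. All 7 markers of the cardiac list were called lower at 72 h against 0 h in wild type. Their median log2 difference was -1.54, against -0.06 for all probe sets, of which 7.83% were called in either direction. In the mutant 6 of the 7 were called lower, against its single 0 h array. The median there was -2.17, against -0.03 for all probe sets, of which 21.5% were called. Skeletal muscle markers (4 of 8) summed to 24825 in the mutant and 2355 to 2516 in wild type at 0 h, and to 527 to 1736 under oxygen. Fat markers (2 of 6) summed to 4458 in the mutant and 2123 to 2225 in wild type at 0 h, and to 553 to 1065 under oxygen. The part of these marker lists in the Gpx4 result was not tested. Across the 13 type A arrays without the mutant at 0 h, the patterns most like Gpx4 were those of the ribosomal protein genes Rpl13a (r = 0.965) and Mrpl36 (0.960) and the chromatin protein gene Rbbp4 (0.950).

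Sod3 was high throughout oxygen exposure in the mutant, while in wild type its 72 h values were low. Probe set 94902_at (gene at chr5:52363804-52369738) read 2176 in the mutant at 0 h, against 6911 and 5404 in wild type. It read 10400.4 and 12121 in the mutant at 24 h, against 9369 in wild type (n = 1), and 9679 and 8584 in the mutant at 48 h, against 9987 and 8774 in wild type. At 72 h it read 10071 and 8631 in the mutant, against 5433 and 3762 in wild type. The 0 h and 72 h groups did not overlap between genotypes, with the mutant lower at 0 h and higher at 72 h.

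At 72 h the log2 difference of Sod3, mutant minus wild type, was 1.03 ± 0.21, a 2.04-fold higher level, but the adjusted p of 0.0622 (limma) missed the threshold. It passed in 3 of 23 alternatives, among them the stricter filter and eBayes with trend and robust, with adjusted p from 0.0212 to 0.396 over all 23. Over the same 72 h arrays, summed smooth muscle markers (8 of 8) were 26672 to 28774 in the mutant and 14930 to 15261 in wild type. Of these 8, 4 were called higher in the mutant, where 0.82% of all tested probe sets were called in either direction. Fibroblast markers (7 of 7) summed to 26145 to 29933 in the mutant and 17399 to 20237 in wild type, and 2 of the 7 were called higher. At 48 h Sod3 averaged 9131 in the mutant and 9381 in wild type. Smooth muscle markers then summed to 21403 to 21798 and 12924 to 14429, and fibroblast markers to 32318 to 32643 and 22024 to 22948. On the mutant 0 h array, where Sod3 was lowest, smooth muscle markers summed to 16953 and fibroblast markers to 22569. Wild type at 0 h gave 18032 to 18062 and 13706 to 16077. Endothelial markers (10 of 10) summed to 37410 on the mutant 0 h array and to 48917 to 52452 in wild type. At 24 h they summed to 75884 to 91236 in the mutant and 73350 in wild type (n = 1). The 48 h sums were 58839.5 to 70487 and 63945 to 70840, and the 72 h sums 65899 to 70865.5 and 55728 to 57215. At 72 h 0 of the 10 were called between genotypes. The part of these marker lists in the Sod3 difference was not tested.

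At 0 h Sod3 was lower in the mutant (log2 difference -1.46 ± 0.26, limma, adjusted p = 0.0188), a call resting on 1 mutant array and lost without replicate 1a of wild type at 0 h (adjusted p = 0.103). Against that array, Sod3 rose in the mutant by 2.33 ± 0.26 at 24 h, 2.03 ± 0.26 at 48 h and 2.06 ± 0.26 at 72 h (adjusted p = 0.000252, 0.000794 and 0.000422). With wild type at 0 h as the baseline, the difference was 0.87 ± 0.21 at 24 h (adjusted p = 0.0287), 0.57 ± 0.21 at 48 h (0.151) and 0.60 ± 0.21 at 72 h (0.0956). In wild type itself the differences were 0.61 ± 0.26, 0.61 ± 0.21 and -0.43 ± 0.21 at 24, 48 and 72 h, none called. The difference in response at 72 h was 2.49 ± 0.34 (adjusted p = 0.00791), and 0.77 ± 0.34 with 24 h as the baseline (adjusted p = 0.653). The patterns most like Sod3 over the 13 arrays were those of Impdh1, an enzyme of guanine nucleotide synthesis (r = 0.967), Ltbp4, an elastic fibre protein (0.937), and Zfp651 (0.912).

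**Figure D2:**
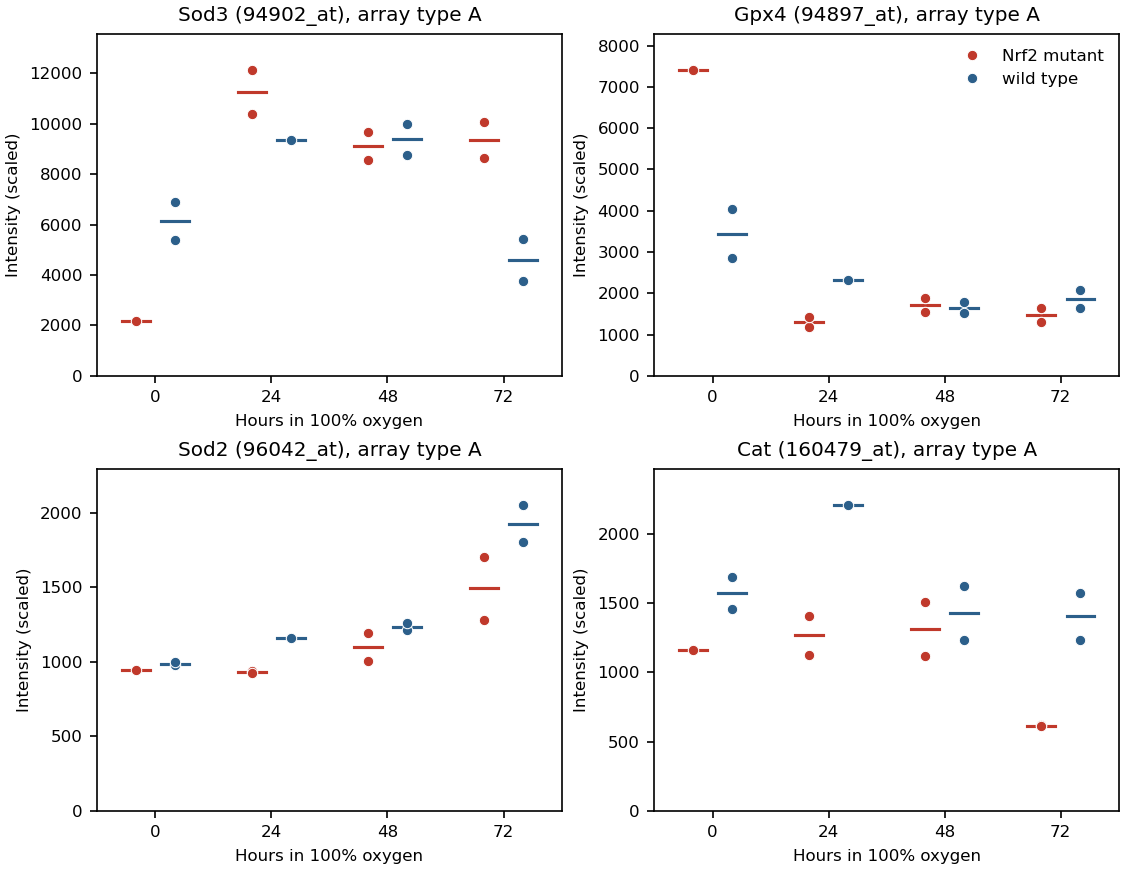
Intensity (scaled, linear axes from 0) of Sod3, Gpx4, Sod2 and Cat on each array of type A, by hours in 100% oxygen. Points are arrays and horizontal bars are group means, with Nrf2 mutant to the left of wild type. The single mutant 0 h array is the lowest for Sod3, at 2176, and the highest for Gpx4, at 7401.

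Sod2 rose by 72 h in wild type on 1 of its 2 probe sets. On type A, 96042_at (gene at chr17:13007839-13018119) read 947 in the mutant at 0 h, 937 and 925 at 24 h, 1194 and 1009 at 48 h and 1707 and 1280.3 at 72 h. In wild type it read 977 and 998 at 0 h, 1157 at 24 h (n = 1), 1213 and 1260.5 at 48 h and 2050.1 and 1805 at 72 h. In both genotypes the 72 h arrays were the highest. The log2 difference of 72 h against 0 h was 0.60 ± 0.21 in the mutant (limma, adjusted p = 0.0690; 0.55 ± 0.17 with wild type at 0 h as the baseline, adjusted p = 0.0664) and 0.91 ± 0.17 in wild type (adjusted p = 0.0107). The difference between these responses was -0.31 ± 0.27, with a 95% interval of -0.92 to 0.30.

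The wild type call of Sod2 is lost without replicate 1a or 1b of 0 h, or 1a of 72 h, with adjusted p from 0.0621 to 0.0716. The second probe set, 112406_at on type B, was between 495 and 849.9 on the 8 mutant arrays and between 491 and 773 on the 8 wild type arrays. Its 72 h differences were -0.02 ± 0.22 in the mutant and -0.21 ± 0.22 in wild type, so the probe sets disagreed. Neutrophil markers (11 of 11) summed to 12292 to 15866 in the mutant at 72 h and 16692 at 0 h. In wild type they summed to 26435 to 27059 at 72 h and 13041 to 13743 at 0 h. Macrophage markers (9 of 10) were higher at 72 h in both genotypes. They summed to 30817 to 32256.5 in the mutant at 72 h and 16395 at 0 h. In wild type the sums were 29714 to 33616 at 72 h and 18879 to 19325.5 at 0 h. The part of these markers in the Sod2 values was not tested. The patterns most like the type A probe set were those of Saa2, an acute phase protein gene (r = 0.925), Ptpn14, a tyrosine phosphatase gene (0.921), and Tax1bp1 (0.903).

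Catalase was lower in the mutant at 72 h on 1 of its 2 probe sets. The probe set 160479_at (gene at chr2:103453904-103485153) read 1162 in the mutant at 0 h, against 1685 and 1454 in wild type, and 1409 and 1123 in the mutant at 24 h, against 2205 in wild type (n = 1). At 48 h the genotypes overlapped, at 1121 and 1506 in the mutant and 1236 and 1625 in wild type. At 72 h it read 618 and 611 in the mutant, against 1237 and 1571 in wild type. The mutant arrays at 72 h were the lowest of all 14.

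The log2 difference of Cat at 72 h was -1.09 ± 0.21 (limma, adjusted p = 0.0479), 2.13-fold lower in the mutant, and the mean over the oxygen times was -0.66 ± 0.13 (adjusted p = 0.0411). Both calls are close to the threshold. The 72 h call is lost in 16 of 23 alternatives, with adjusted p up to 0.327 without replicate 1b of wild type at 72 h. The call of the mean is lost in 15 of 23, with adjusted p up to 0.116 without replicate 1b of wild type at 48 h. Within the mutant, Cat fell by 72 h, with a log2 difference of -0.84 ± 0.26 against 0 h (adjusted p = 0.0417) and of -0.95 ± 0.21 against 24 h (adjusted p = 0.0308). The first of these was -1.25 ± 0.21 with wild type at 0 h as the baseline (adjusted p = 0.00384). It is lost without either mutant array at 72 h or either wild type array at 0 h, with adjusted p from 0.0527 to 0.107. The second is lost without any 1 of the 4 arrays compared, with adjusted p from 0.0754 to 0.173.

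The second Cat probe set is 161877_f_at, whose suffix _f marks, in the array maker's naming, probe sets with probes shared among related sequences. It differed between genotypes by 0.15 ± 0.32 at 72 h and by 0.06 ± 0.20 as the mean over the oxygen times. It read 1726 and 1009 in the mutant at 72 h, against 1426 and 984 in wild type. Summed alveolar type 1 markers (4 of 6) at 72 h were 29350 to 30183 in the mutant and 36565 to 36778 in wild type. At that time 0 of the 6 were called between genotypes. At 48 h the sums were 40944 to 48857 in the mutant and 35729 to 38962 in wild type. The part of these markers in the Cat result was not tested. Over the 13 type A arrays without the mutant at 0 h, the patterns most like 160479_at were those of Fmo1, a drug-metabolising oxygenase gene (r = 0.905), Hopx, an alveolar type 1 marker (0.903), and Emcn, an endothelial marker (0.888).

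Sod1 was bright on types A and C and separated the genotypes less. On type C, 168548_f_at (gene at chr16:90220762-90226333), whose suffix again marks probes shared among related sequences, read 52148 and 63683 in the mutant at 0 h, against 37252 and 57256 in wild type. At 24 h it read 25865 and 23429.7 in the mutant, against 34952 and 59089 in wild type. At 48 h it read 28162 and 36577 in the mutant, against 35274 and 41486 in wild type, and at 72 h 24436 and 36684 in the mutant, against 41392 and 34411 in wild type. The groups overlapped at 0, 48 and 72 h and not at 24 h.

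The 1 called change of Sod1 was the fall in the mutant at 24 h against 0 h, of -1.22 ± 0.33 on this type C probe set (limma, adjusted p = 0.0199). It is lost with wild type at 0 h as the baseline (-0.90 ± 0.33, adjusted p = 0.113) and without either mutant array at 24 h (adjusted p = 0.0658 and 0.0917). On type A, 100538_at ran from 4861 to 8531 on the 7 mutant arrays and from 4785 to 11862 on the 7 wild type arrays. Its difference against 0 h at 24 h was -0.49 ± 0.30 in the mutant, and at 72 h it was -0.56 ± 0.30 in the mutant and -0.81 ± 0.25 in wild type (adjusted p = 0.224 and 0.0763). With wild type at 0 h as the baseline the mutant at 72 h was called lower, at -0.90 ± 0.25 (adjusted p = 0.0372), and at 24 h was not, at -0.82 ± 0.25 (adjusted p = 0.0604). The wild type fall at 72 h was called in 3 of 23 alternatives, with adjusted p from 0.0331, without replicate 1a of wild type at 72 h (-1.16 ± 0.25), to 0.404 over all of them. On type C the mutant's 72 h difference of -0.94 ± 0.33 (adjusted p = 0.0645) was called in 3 of 23 alternatives and was -0.62 ± 0.33 with wild type at 0 h as the baseline (adjusted p = 0.273). The mean genotype difference over the oxygen times was -0.37 ± 0.15 on type A and -0.49 ± 0.19 on type C (adjusted p = 0.395 and 0.356). The patterns most like the type C probe set, over its 14 arrays without the mutant at 0 h, were those of Cped1 (r = 0.858), Rbm8a, a component of the exon junction complex (0.829), and Zmym2 (0.825).

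Gpx1 and Gpx3 had no called difference in any of the 14 comparisons. The Gpx1 probe set 94132_at (gene at chr9:108339080-108340342) ran from 1294 to 2163 on the mutant arrays (median 1885) and from 1329 to 2452 on the wild type arrays (median 1966). Its mean genotype difference over the oxygen times was 0.03 ± 0.17, with a 95% interval of -0.33 to 0.40. Gpx3 (gene at chr11:54902854-54910387) ran on 101676_at from 16187 to 26772 in the mutant and from 15113 to 21737 in wild type, with a mean difference of 0.19 ± 0.12 and an interval of -0.07 to 0.45. At 72 h that probe set read 21946 and 19499.5 in the mutant, against 15113 and 15332 in wild type, without overlap (log2 difference 0.44 ± 0.19, limma, adjusted p = 0.477). On type C, 168706_r_at was dimmer, from 330.1 to 652 in the mutant and 349.7 to 749.6 in wild type, and its 72 h difference was -0.04 ± 0.34.

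Counted together, 2 of the 12 tested member probe sets were called between genotypes in the mean of the oxygen times, both lower in the mutant (Gpx2 and Cat), where 1.25% of all tested probe sets were called. The median log2 difference was -0.17 for the members and -0.01 for all probe sets. At single times, 2 were called at 0 h (Gpx2 and Sod3, background 2.75%), 1 at 24 h (Gpx2, 0.157%), 1 at 48 h (Gpx2, 0.376%) and 2 at 72 h (Gpx2 and Cat, 0.82%), all lower in the mutant.

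Under oxygen in wild type, 0 of 12 were called at 24 h by limma (1 at an unadjusted p under 0.05, background 1.72%). At 48 h 2 were called (Gpx2 higher and Gpx4 lower, 6.64%), and at 72 h 3 (Gpx2 and Sod2 higher, Gpx4 lower, 7.83%). In the mutant, 3 were called at 24 h (Sod3 higher, Gpx4 and Sod1 lower, background 24.4%), 2 at 48 h (Sod3 higher and Gpx4 lower, 17.9%) and 3 at 72 h (Sod3 higher, Gpx4 and Cat lower, 21.5%), shares that are near these backgrounds. With wild type at 0 h as the baseline, 3 were called in the mutant at 24 h (Sod3 higher, Gpx4 and Gpx2 lower, background 10.2%), 2 at 48 h (Gpx4 and Gpx2 lower, 6.45%) and 4 at 72 h (Gpx2, Gpx4, Sod1 and Cat lower and none higher, 12.9%). Between 72 h and 24 h, 1 was called in the mutant (Cat lower, 5.05%). In wild type that comparison called 0 by limma (5 at an unadjusted p under 0.05, background 1.5%). The difference in response at 72 h called 2 (Gpx2 and Sod3, 1.36%). The oxygen comparisons within a genotype share their 0 h arrays.

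**Figure D3:**
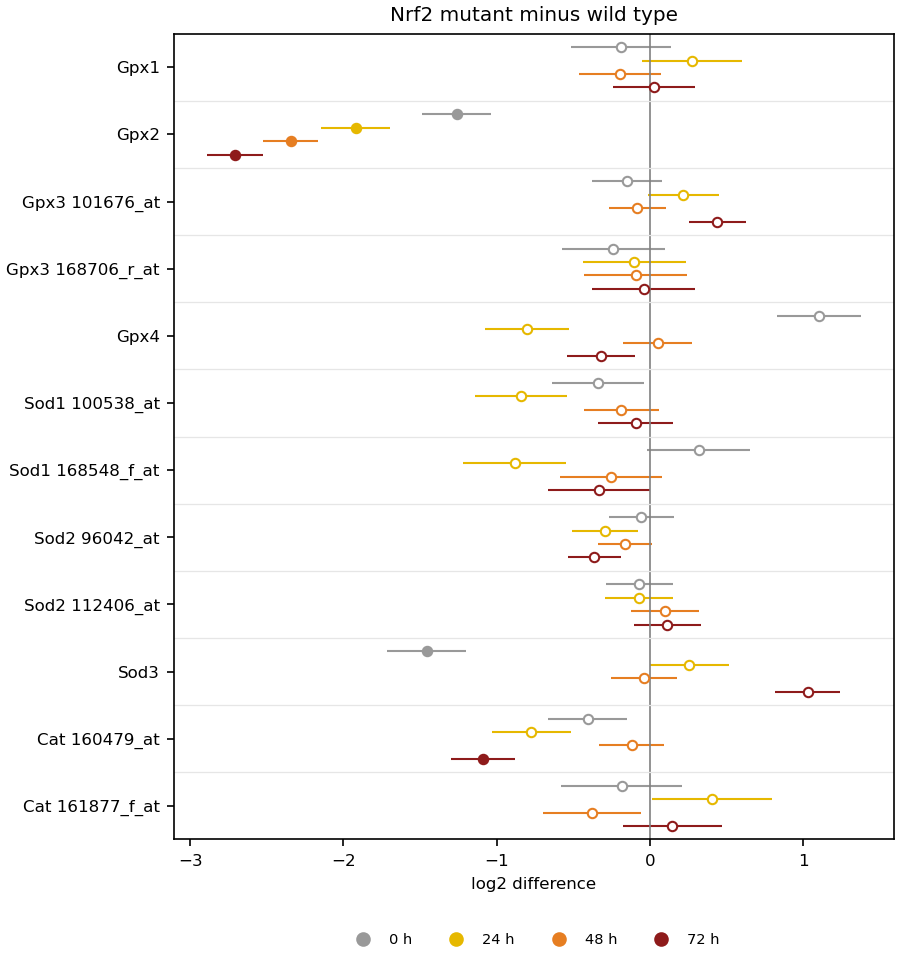
Log2 difference, Nrf2 mutant minus wild type, for the 12 tested member probe sets at 0, 24, 48 and 72 h in oxygen. Points are limma estimates, horizontal lines are ± 1 SE, and filled points have an adjusted p under 0.05. Gpx2 lies at -1.26 to -2.71 and is the only member filled at all 4 times.

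**Figure D4:**
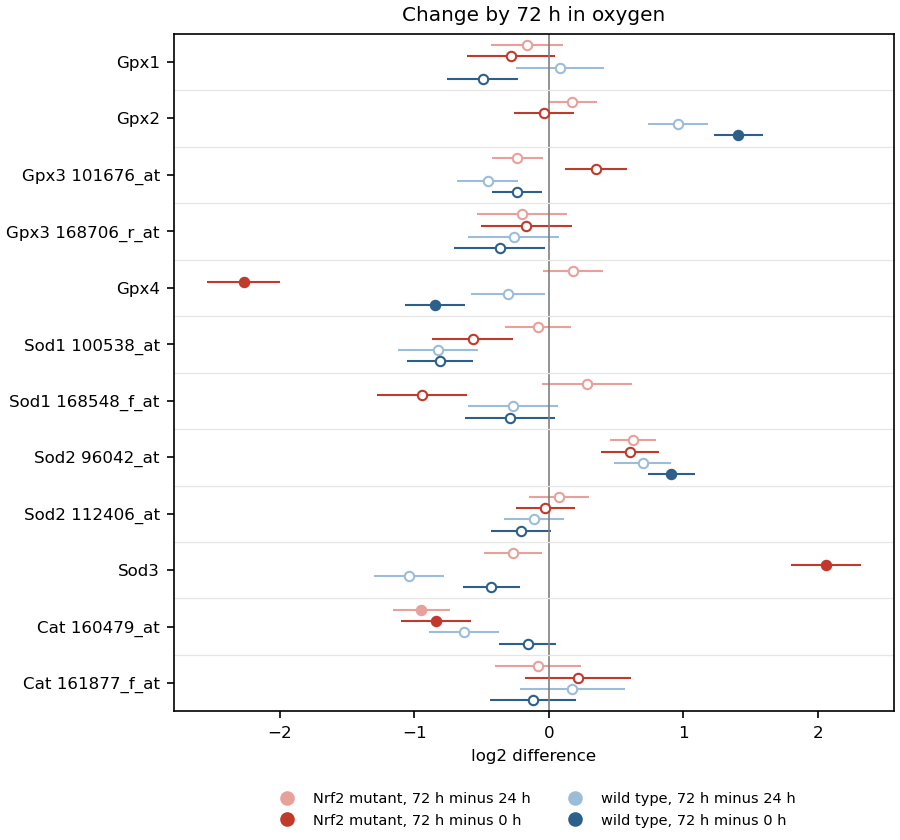
Log2 difference of 72 h against 24 h (pale) and against 0 h (dark) for the 12 tested member probe sets, in the Nrf2 mutant (red) above wild type (blue). Points are limma estimates, lines are ± 1 SE, and filled points have an adjusted p under 0.05. In the mutant, Gpx4 at -2.27 and Sod3 at 2.06 stand out against 0 h and not against 24 h.

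Other genes of the pathway were taken as 5 lists. In the list of glutathione and thioredoxin supply, which feeds the peroxidases, 4 of 14 tested genes were lower in the mutant over the oxygen times and none higher (list median -0.17, all probe sets -0.01, with 1.25% of all probe sets called in either direction). These were Gclc and Gclm, the subunits of the rate-limiting enzyme of glutathione synthesis, at -1.16 ± 0.12 and -0.99 ± 0.18, the cystine carrier Slc7a11 at -1.06 ± 0.12 and the thioredoxin reductase Txnrd1 at -1.14 ± 0.11 (limma, adjusted p from 0.000624 to 0.0202). At 72 h against 0 h, 4 of the 14 rose in the mutant (median 0.33, all probe sets -0.03, 21.5% called in either direction), with Txnrd1 at 0.84 ± 0.21 and the glutathione reductase gene Gsr at 0.86 ± 0.25, and the mitochondrial Txn2 and Txnrd2 at 0.78 ± 0.21 and 0.98 ± 0.24. These values rest on the single mutant 0 h array. With wild type at 0 h as the baseline the 4 genes were at 0.21 to 0.30 and not called (adjusted p from 0.402 to 0.526), and 1 of the 14, the glutaredoxin gene Glrx, was called higher (0.64 ± 0.16). In wild type 5 of 14 rose (median 0.36, all probe sets -0.06, 7.83% called in either direction), with Slc7a11 at 2.72 ± 0.21, Gclc at 2.29 ± 0.19, Txnrd1 at 1.96 ± 0.17, Gclm at 1.38 ± 0.28 and Gsr at 0.87 ± 0.21.

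Among the other peroxide-removing enzymes (8 tested of 11 listed), limma called 0 between genotypes over the oxygen times (median 0.00, all probe sets -0.01). The listed Prdx1, Prdx5 and Prdx6 had no tested probe set, so the count says nothing about them. Peroxiredoxin Prdx2 fell by 72 h, with log2 differences of -1.67 ± 0.20 in the mutant and -1.02 ± 0.17 in wild type, and with wild type at 0 h as the baseline it was -0.99 ± 0.17 in the mutant, still called. Against the mutant at 0 h, Gpx8 was also lower (adjusted p = 0.00110) and the sulfiredoxin gene Srxn1 higher (0.97 ± 0.19). Against wild type at 0 h they were at -0.37 ± 0.17 and 0.21 ± 0.16 and not called (adjusted p = 0.182 and 0.464). Of 12 tested genes for copper, manganese and selenium handling, 0 were called between genotypes over the oxygen times (median -0.09). The metal carrier Slc39a14 rose at 72 h by 2.15 ± 0.21 in the mutant and by 1.78 ± 0.21 in wild type (limma, adjusted p = 3.54e-05 and 0.000315). Against wild type at 0 h it was 2.33 ± 0.21 in the mutant. Against the mutant at 0 h, the copper chaperone gene Atox1 (-1.44 ± 0.29) and the selenocysteine synthesis gene Pstk (-2.65 ± 0.44) were called lower, and Secisbp2, whose product takes part in reading selenocysteine codons, higher (0.93 ± 0.30). Against wild type at 0 h these were -0.55 ± 0.24, -0.94 ± 0.36 and 0.45 ± 0.30, none called (adjusted p from 0.121 to 0.382).

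Of 7 tested producers of superoxide and peroxide, 2 were lower in the mutant over the oxygen times and none higher. The list median was -0.27, against -0.01 for all probe sets, of which 1.25% were called in either direction. The 2 were Ncf4, a subunit of the phagocyte oxidase, at -0.74 ± 0.10 and the aldehyde oxidase Aox1 at -2.06 ± 0.22 (limma, adjusted p = 0.00582 and 0.00115). On the single mutant 0 h array Ncf4 was at -0.91 ± 0.20 (called) and Aox1 at -1.51 ± 0.43 (not called) against wild type. At 24 h, with 1 wild type array, they were at 0.02 ± 0.20 and -2.31 ± 0.43, neither called. The xanthine oxidase gene Xdh rose at 72 h by 1.63 ± 0.19 in the mutant and by 0.80 ± 0.16 in wild type. At 0 h Xdh was lower on the mutant array (-1.01 ± 0.19, adjusted p = 0.0240), and with wild type at 0 h as the baseline the mutant's value at 72 h was 0.63 ± 0.16 (adjusted p = 0.0254). The difference in response was not called (0.83 ± 0.25, adjusted p = 0.141). The oxidase gene Nox4 fell in wild type (-0.99 ± 0.25). In the mutant at 72 h it was -0.08 ± 0.25 against its own 0 h arrays, not called. Against wild type at 0 h it was -0.83 ± 0.25 in the mutant (limma, adjusted p = 0.0464). The genotypes did not have a called Nox4 difference at 72 h (0.16 ± 0.25). Among 15 tested genes of the peroxisome list, limma called 0 between genotypes over the oxygen times (median -0.02). The list includes Pmp22, a myelin protein gene by its mouse symbol. Hacl1, an enzyme of fatty acid alpha-oxidation, fell by 72 h (-0.97 ± 0.16 in the mutant and -0.74 ± 0.16 in wild type), with -0.78 ± 0.16 in the mutant against wild type at 0 h. The import receptor gene Pex7 fell in the mutant, at -1.50 ± 0.20 against its own 0 h array and -0.78 ± 0.16 against wild type at 0 h (adjusted p = 0.0113). Against the mutant 0 h array, Pex5 (1.61 ± 0.30) and Pex14 (0.98 ± 0.30) were called higher. Against wild type at 0 h they were 0.42 ± 0.24 and 0.24 ± 0.25, not called (adjusted p = 0.320 and 0.622), and in wild type 0.18 ± 0.24 and 0.09 ± 0.25.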

How the data were processed

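The deposited intensity values, 1 per probe set and array, had been scaled by the authors: the 2%-trimmed mean of the deposited values is about 800.4 on type A, 800.2 on type B and 800.4 on type C. For the tool and the genome build, the sources used here give no name. This scaling was kept. Before taking log2, the 25th percentile over an array type (78.1 on A, 126 on B, 106 on C) was added to its intensities, which understates changes of dim probe sets. Controls were left out. Testing required an intensity above the 40th percentile (195, 272 and 211) on at least 2 arrays, which 26833 probe sets met.

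The test was limma 3.58.1 under R 4.3.3, fitted to each array type separately with a mean for each of the 8 groups, which lets a group of 1 array borrow the spread of the rest. Two-sided p-values were adjusted (Benjamini-Hochberg) over the 3 array types together. The fit was tested on simulated data. Intensities of different probe sets are not comparable. A marker sum therefore mostly follows its brightest probe sets and does not measure how far a list differs. For the 8 squamous markers, the median log2 difference at 0 h, mutant minus wild type, was 4.70. Of these, 6 were called higher, where 2.75% of all probe sets were called in either direction. The precision of the intensities is limited by the number of arrays.

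Named were the 8 members, Nfe2l2, up to 4 called members of each pathway list and comparison (Gsr, a 5th in wild type at 72 h, completes that count; Glrx was named after its value was seen), and the 3 probe sets most correlated with each member that had a call, without the mutant 0 h arrays. The members and lists were chosen with earlier results of these data known. The alternatives were a floor, quantile normalization, no filter, a stricter filter at the 60th percentile, only the groups compared, trend and robust options of eBayes, the replicate label as a block, other baselines and leaving out each replicate. The 24 h baseline of the difference in response, and wild type at 0 h as baseline for 24 and 48 h and for the pathway lists, were added after seeing the data. Gene positions and promoters are RefSeq's, on GRCm38.p6.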

Additional observations from a re-analysis of the deposited data

Results flagged for a closer look

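The oxygen response at 72 h differed between genotypes for 2 members, by limma's test of the difference itself. For Gpx2 it was -1.45 (log2, mutant minus wild type), with both wild type 72 h arrays above both at 0 h and the mutant 72 h arrays on either side of the mutant 0 h array. For Sod3 it was 2.49, with both mutant 72 h arrays above the mutant 0 h array and the wild type 72 h arrays overlapping those at 0 h. Both values use the single mutant 0 h array of type A, and with 24 h as the baseline they were -0.79 (adjusted p = 0.546) and 0.77 (adjusted p = 0.653), neither called.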

How the results depend on the processing

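Over the alternatives, 247 of 318 counts of called members stayed within 1.5 times the value in the report and 71 did not. Of 1159 settings of member differences at an unadjusted p under 0.05, 1032 kept direction and side of the threshold, 97 lost a call, 27 gained one and 3 changed sign. The cause of each change below was not tested, beyond the smaller number of arrays or the larger number of probe sets that a setting itself brings. With a floor in place of the added value, with no filter, and with only the groups compared, the count was 1 for the mean genotype difference over the oxygen times and 1 at 72 h, where quantile normalization also gave 1. The difference in response called 1 with the floor and with no filter. With only the groups compared it called 0, as did the genotype difference at 0 h, at 24 h, wild type at 48 h and the mutant between 72 h and 24 h, while wild type at 72 h called 1. The stricter filter gave 5 for the mutant at 72 h, 1 for wild type between 72 h and 24 h and 2 for the mutant between these times. EBayes with trend and robust gave 2 for each of the last pair of comparisons, and 24 h as baseline gave 0 for the difference in response.

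Replicate labels 1a and 1b are shared across groups, and the correlation of same-labelled arrays' deviations was over 0.1 in 7 of 15 pairs of groups on type A, 18 of 28 on B and 2 of 28 on C (medians 0.0959, 0.126 and 0.0399). As it was not over 0.1 in every pair, the label was not taken to pair the samples. With the replicate block, 1 was called for the mean genotype difference (Cat lost its call), 1 for wild type and 2 for the mutant between 72 h and 24 h, and Sod3 at 72 h passed the threshold between genotypes.

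Leaving out 1 replicate gave counts from 1 to 2 for the mean genotype difference, 1 to 2 at 0 h, 0 to 1 at 24 h, 1 to 2 at 72 h, 0 to 2 for wild type at 48 h, 1 to 3 at 72 h, 0 to 1 for the mutant between 72 h and 24 h and 1 to 2 for the difference in response. On type A nothing could be fitted without the only mutant 0 h array or the only wild type 24 h array, where they enter. Signs changed for Gpx4 (0.010) and Sod3 (-0.051) when 0 h joined the mean genotype difference, and for the Gpx4 difference in response with 24 h as baseline (0.48), all uncalled.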
